A study of Homo sapiens with 30 samples.

Results

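The 10 genes described here belong to the YAP and TEAD pathway: its target genes CYR61, CTGF, ANKRD1, and AMOTL2, the coactivators YAP1 and WWTR1, the DNA-binding partners TEAD1 and TEAD4, and the kinases LATS1 and LATS2. They were found by symbol in an RNA-Seq table of 26228 genes, and all 10 were measured above 0 in each of the 30 libraries. CYR61 and CTGF were chosen by their measured FPKM, for higher levels with CYC065 than with DMSO, so their values are given as a description and with no test, while the other 8 genes were tested among 11575 genes.

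The libraries came from SH-EP, an established human neuroblastoma (NB) cell line without MYCN amplification, and from 4 SH-EP lines with a retroviral MYCN transgene under an exogenous promoter, which carried WT MYCN or the phosphorylation-site mutants T58A, S62A, or T58A S62A. Each of the 5 lines was exposed for 6 hours to DMSO or to 1 μM CYC065, an inhibitor of CDK9 and CDK2 that blocks transcription elongation, and each line and treatment had 3 libraries. The sources used here do not say whether a MYCN line was a clone or a pool, or whether the 3 libraries of a group came from separate cultures, so the p values measure only the spread between these libraries.

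In the Hippo pathway, MST kinases and their scaffolds activate LATS1 and LATS2, which phosphorylate the coactivator YAP and its paralog TAZ, the product of WWTR1, and keep them in the cytoplasm. Unphosphorylated YAP and TAZ enter the nucleus, bind TEAD factors, and drive genes for matrix proteins, cytoskeletal regulators, and feedback inhibitors. CYR61 and CTGF, now also named CCN1 and CCN2, encode secreted matricellular proteins that bind integrins, and both are known as immediate early genes with short-lived transcripts. Mesenchymal NB cells are known for high YAP and TAZ activity.

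MYCN was listed at 0 FPKM (fragments per kilobase of transcript, scaled to sequencing depth) in the 6 SH-EP libraries and lay between 5.08 and 20.1 FPKM in the 24 libraries of the MYCN lines. The mesenchymal markers VIM and PRRX1 were present in every library, whereas the adrenergic marker PHOX2A was listed at 0 in all 30 and the adrenergic markers HAND2 and GATA3 were present, HAND2 at 78.0 to 83.9 FPKM in SH-EP in DMSO. Of the 5 mesenchymal markers, 4 were lower in DMSO in every MYCN-line library than in SH-EP: FN1 (27.0 to 55.0 against 301 to 305 FPKM), VIM (1305 to 1933 against 2425 to 2540), PRRX1 (34.0 to 95.3 against 107 to 117), and SNAI2 (4.64 to 12.7 against 20.5 to 21.9). TWIST1 overlapped, and the 5 summed to 2890 to 2997 FPKM in SH-EP and 1413 to 2052 in the MYCN lines. The share of all genes lower in this way is not given, so the count of 4 only describes these markers. The part of these markers in the line differences given next was not tested. Read counts were not available, but the steps between low values put the DMSO libraries at 0.470 to 1.0 and the CYC065 libraries at 0.293 to 0.554 of the deepest library. ERCC spike-ins had been added by cell number. The factor that equalized the median spike-in, which is large where a library holds much cellular RNA relative to spike-in RNA, was 3.05 to 3.28 in SH-EP in DMSO and 0.722 to 2.01 in the MYCN lines in DMSO, so the SH-EP libraries stood apart. Each of the 6 SH-EP libraries also shared its index sequence with a library of a MYCN line, so the line and a possible pool of libraries cannot be told apart where SH-EP is compared with the MYCN lines.

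By position in GRCh37, CYR61 (chromosome 1, 86046444 to 86050272, plus strand) and CTGF (chromosome 6, 132269316 to 132272512, minus strand) are compact protein-coding genes of 5 exons each. Their lengths of 3829 and 3197 bp compare with a median of 31480 bp over the tested genes, of which 7.83% and 6.52% were shorter. ANKRD1 (chromosome 10, 92671853 to 92680844, minus strand), which encodes an ankyrin repeat protein of the nucleus and sarcomere, spans 8992 bp, and AMOTL2 (chromosome 3, 134074189 to 134094321, minus strand), an angiomotin that retains YAP at cell junctions, spans 20133 bp. The other 6 genes are longer: LATS1 (chromosome 6, 149979289 to 150039241), TEAD4 (chromosome 12, 3068496 to 3149842), LATS2 (chromosome 13, 21547175 to 21635725), YAP1 (chromosome 11, 101981178 to 102104155), WWTR1 (chromosome 3, 149235022 to 149454501), and TEAD1 (chromosome 11, 12695968 to 12966284) span 59953 to 270317 bp.

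Promoter sequences from RefSeq on GRCh38.p14 were matched for 7 of the 10 genes. The TEAD-binding motif GGAATG, or its reverse complement CATTCC, was searched in the 250 bases before each start site. It was found in 4175 of 35116 promoters (11.9%), with 2 or more matches in 330 (0.94%) and 3 or more in 29 (0.0826%). CTGF had 3 matches, at -169, -104, and -95 from the start site by their first base, ANKRD1 had 2, at -220 and -128, and AMOTL2 had 1 on the opposite strand, at -69, at 1 of its 2 annotated starts. The regions are shown for these 3 target genes, read 5′ to 3′ along the gene, with the matches in capitals. They lie at chr6:131951373-131951622, chr10:90921088-90921337, and chr3:134374448-134374697, all on the minus strand.
CTGF: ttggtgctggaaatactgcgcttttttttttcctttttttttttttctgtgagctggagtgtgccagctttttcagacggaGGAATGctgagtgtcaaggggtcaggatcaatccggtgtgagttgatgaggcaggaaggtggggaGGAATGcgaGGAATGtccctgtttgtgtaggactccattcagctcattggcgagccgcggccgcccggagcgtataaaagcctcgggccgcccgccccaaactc
ANKRD1: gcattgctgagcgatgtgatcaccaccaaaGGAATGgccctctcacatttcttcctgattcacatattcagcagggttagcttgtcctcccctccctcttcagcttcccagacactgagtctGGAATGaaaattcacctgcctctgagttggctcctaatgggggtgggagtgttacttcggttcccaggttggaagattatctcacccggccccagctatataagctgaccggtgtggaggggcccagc
AMOTL2: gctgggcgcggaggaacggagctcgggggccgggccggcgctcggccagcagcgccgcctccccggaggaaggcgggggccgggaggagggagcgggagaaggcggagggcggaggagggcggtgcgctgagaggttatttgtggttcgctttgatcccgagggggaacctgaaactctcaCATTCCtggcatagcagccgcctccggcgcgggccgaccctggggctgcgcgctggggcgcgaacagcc
Of the other genes matched, YAP1 had 1 match, at -162, and WWTR1, LATS1, and LATS2 had 0 in this window. A match of these letters is a description of the sequence and not a measured site.

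To see how the target genes stood in each line before treatment, the DMSO libraries were compared on FPKM as deposited. CYR61 was at 124, 142, and 146 FPKM in SH-EP. It was at 134, 135, and 140 FPKM in T58A, at 149, 150, and 152 in S62A, at 159, 182, and 186 in WT, and at 215, 222, and 228 in T58A S62A. The double mutant held the highest CYR61 level, apart from all other lines, and T58A overlapped with SH-EP. CTGF was at 101, 105, and 107 FPKM in T58A, at 102, 110, and 111 in WT, at 100.2, 112, and 115 in SH-EP, at 114, 115, and 116 in S62A, and at 157, 163, and 173 in T58A S62A. The 4 lines other than the double mutant overlapped in order, so only T58A S62A stood apart. On the log2 scale, CYR61 differed from SH-EP by 0.36 (SE 0.0549) in WT and 0.69 in T58A S62A, and CTGF by 0.59 (SE 0.0477) in T58A S62A. With spike-in scaling both signs turned over the 4 lines together, to -0.95 for CYR61 and -1.10 for CTGF, where the median of all genes was -1.17.

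ANKRD1 was the target gene that separated the MYCN lines from SH-EP. It was at 54.5, 55.9, and 59.7 FPKM in SH-EP, at 106, 112, and 118 in T58A, at 115.1, 115.3, and 123 in S62A, at 148, 151, and 157 in WT, and at 153, 174, and 201 in T58A S62A. Every library of a MYCN line lay above the SH-EP libraries, and T58A overlapped with S62A and WT with T58A S62A. Averaged over the MYCN lines, the log2 change was 1.27 (SE 0.0625, limma adjusted p = 1.47e-14), a 2.41-fold higher level, against a median of 0.06 for all genes. With spike-in scaling the mean difference was 0.02 on the log2 scale and did not pass the threshold (adjusted p = 0.882). By line on that scale, ANKRD1 was lower in S62A (-0.90, adjusted p = 3.17e-05) and higher in T58A S62A (0.80, adjusted p = 0.000365). The medians of all genes in these 2 lines were -1.86 and -0.75. The values in WT (0.16) and T58A (0.03) did not pass. AMOTL2 was at 31.6 to 38.1 FPKM in SH-EP and at 30.6 to 39.5 in the MYCN lines, with overlapping libraries and a log2 difference of 0.04 (SE 0.0467, adjusted p = 0.522).

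**Figure D1:**
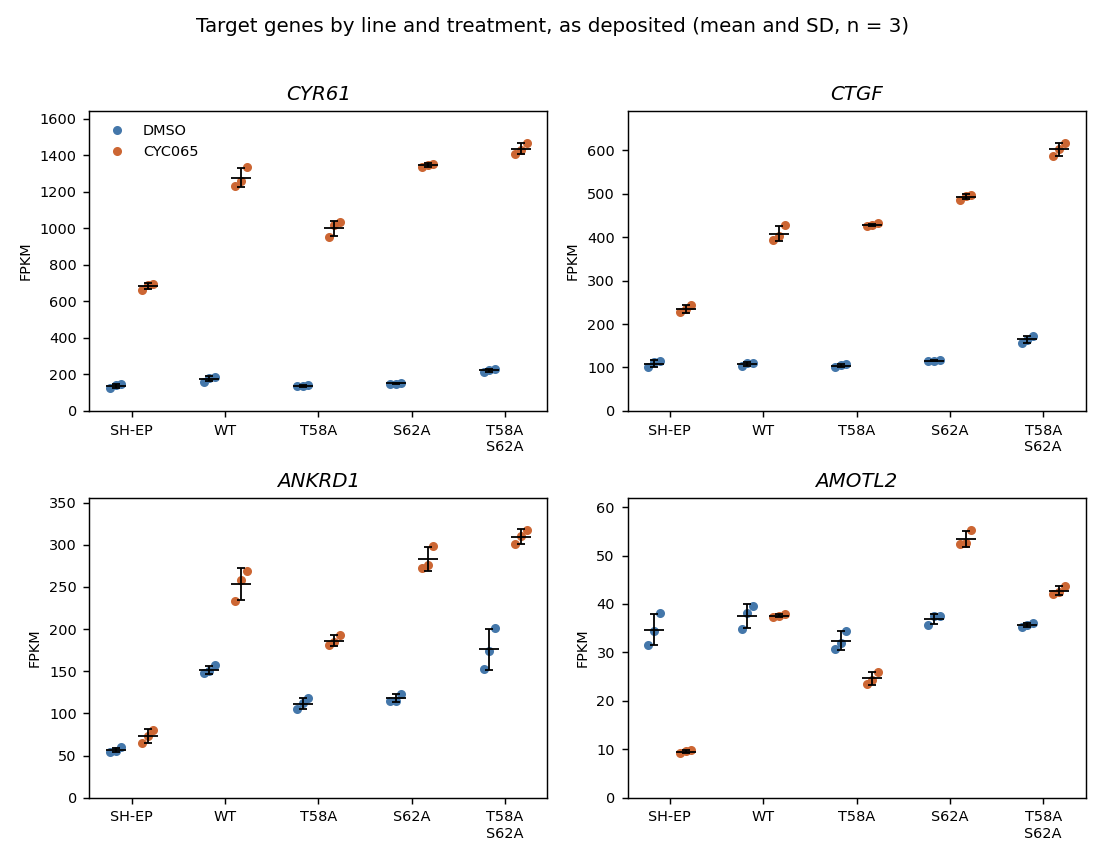
FPKM as deposited (vertical axes, starting at 0) of CYR61, CTGF, ANKRD1, and AMOTL2 by line (horizontal axis) and treatment. Points are libraries, and bars are the mean and SD of 3. In DMSO, ANKRD1 lies at 54.5 to 59.7 in SH-EP and at 106 to 201 in the MYCN lines, and with CYC065, AMOTL2 lies at 9.18 to 9.77 in SH-EP and at 23.4 to 55.3 in the MYCN lines.

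Among the TEAD factors, TEAD4 was higher and TEAD1 lower in the MYCN lines. TEAD4, a TEAD family member known from trophectoderm and muscle, was at 9.03, 9.19, and 10.4 FPKM in SH-EP, at 16.2, 18.5, and 19.3 in S62A, at 17.6, 17.7, and 18.5 in WT, at 19.9, 20.5, and 21.2 in T58A, and at 20.4, 21.6, and 23.2 in T58A S62A. All 12 MYCN-line libraries lay above the 3 of SH-EP. The mean log2 change was 1.02 (SE 0.114, adjusted p = 3.63e-08), and with spike-in scaling it turned to -0.22 (adjusted p = 0.268). TEAD1 was at 34.8, 37.7, and 38.9 FPKM in SH-EP, at 36.8 to 41.6 in S62A, and at 24.3 to 29.3 in WT, T58A, and T58A S62A. The S62A libraries overlapped with SH-EP, and those of the other 3 lines did not. TEAD1 was lower by limma in WT (-0.45), T58A (-0.38), and T58A S62A (-0.54), with adjusted p values of 3.58e-06, 3.31e-05, and 2.18e-07, and in S62A the difference was 0.05 (adjusted p = 0.518). With spike-in scaling TEAD1 was at -1.70 in WT, -1.33 in T58A, -1.37 in T58A S62A, and -1.90 in S62A, each past the threshold. The medians of all genes were -1.16, -0.88, -0.75, and -1.86 in the same order. The ratio of TEAD4 to TEAD1 within a library does not depend on the scaling. It was 0.232 to 0.299 in SH-EP in DMSO and 0.390 to 0.902 in the MYCN lines, with no overlap.

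The coactivators and the kinases differed less. YAP1 was at 23.8 to 24.7 FPKM in SH-EP, at 28.2 to 29.3 in T58A, and at 18.7 to 21.0 in S62A, so the T58A libraries lay above and the S62A libraries below those of SH-EP. The log2 changes from SH-EP were 0.24 in T58A (SE 0.0727, adjusted p = 0.00842) and -0.28 in S62A (adjusted p = 0.00193), and those in WT (-0.01) and T58A S62A (0.06) did not pass the threshold. With spike-in scaling YAP1 was at -0.72 in T58A (adjusted p = 0.00119), -2.23 in S62A, -1.27 in WT, and -0.77 in T58A S62A, each past the threshold. The medians of all genes were -0.88, -1.86, -1.16, and -0.75 in the same order. WWTR1 was at 23.5 to 24.4 FPKM in SH-EP and at 23.9 to 28.5 in the MYCN lines, a mean log2 change of 0.11 (adjusted p = 0.0469, with 1.98e-07 to 0.179 over the alternatives). This rise passed in 14 of the 30 fits that left out 1 library, with adjusted p values of 0.0181 to 0.179. With spike-in scaling WWTR1 turned to -1.14, and the low end of 1.98e-07 belongs to that opposite sign. LATS1 was at 7.26 to 8.35 FPKM in SH-EP and at 6.00 to 9.67 in the MYCN lines, and LATS2 at 5.26 to 6.08 and at 4.39 to 6.59, with overlapping libraries for both. LATS2 passed the threshold in T58A S62A (-0.34, adjusted p = 0.0133), and LATS1 in 0 lines. Among all genes, 31.6% were higher and 22.6% lower in WT, 30.9% and 23.3% in T58A, 31.0% and 23.4% in S62A, and 31.2% and 24.1% in T58A S62A.

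**Figure D2:**
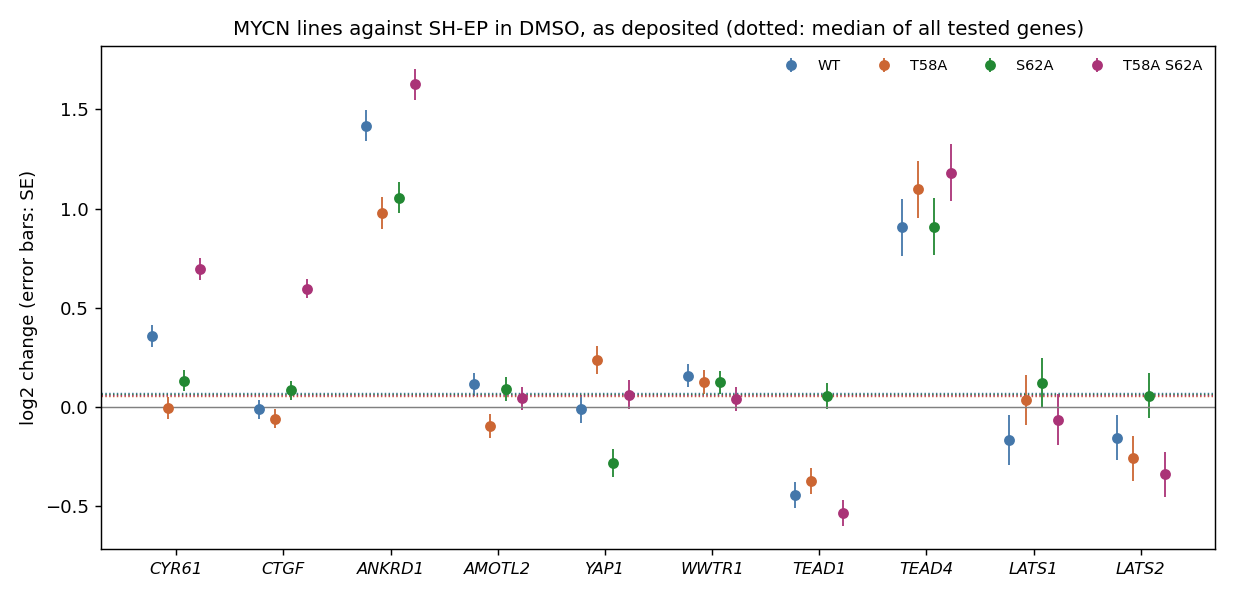
Log2 change in FPKM as deposited from SH-EP to each MYCN line in DMSO (vertical axis) for the 10 genes (horizontal axis). Points are fitted changes, bars are standard errors, and dotted lines are the median of all tested genes in each line. ANKRD1 (0.98 to 1.63) and TEAD4 (0.91 to 1.18) lie above 0 in all 4 lines, and TEAD1 lies below 0 in WT, T58A, and T58A S62A.

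Over the mean of the 4 MYCN lines, 3 of the 8 tested genes were higher than in SH-EP (ANKRD1, TEAD4, and WWTR1), 1 was lower (TEAD1), and 4 did not pass. Of all tested genes, 34.6% were higher and 26.3% lower, and 21.8% had all 12 DMSO libraries of the MYCN lines above the 3 of SH-EP, as ANKRD1 and TEAD4 had. Both also passed the threshold as higher in each of the 4 lines, as did 19.2% of all genes. With spike-in scaling, which moved the median of all genes to -1.17, 0 of the 8 were higher and 6 were lower, beside 1.10% and 91.2% of all genes. Spike-in scaling counts RNA per cell, and in these bulk samples fewer cells of a type and less RNA per cell cannot be told apart.

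The comparison of CYC065 with DMSO asks which transcripts held their level per cell when transcription was inhibited, and it was made on spike-in scaled FPKM. The median of all genes fell by 1.23 on the log2 scale over the 4 MYCN lines and by 1.06 in SH-EP, and changes are read against that shift. CYR61 stood at 204, 205, and 307 scaled FPKM in WT in DMSO and at 454, 519, and 625 with CYC065, at 162, 256, and 271 against 693, 724, and 738 in T58A, and at 107, 125, and 140 against 352, 400.0, and 422 in S62A. In T58A S62A, CYR61 was at 339, 401, and 457 in DMSO and at 982, 1309, and 1389 with CYC065, and in SH-EP it was at 406, 435, and 470 against 810.0, 951, and 983. In all 5 lines every CYC065 library lay above every DMSO library of the same line. The log2 differences were 1.06 in SH-EP, 1.17 in WT, 1.61 in T58A S62A, 1.66 in S62A, and 1.68 in T58A (SE 0.189 each). The mean over the MYCN lines exceeded 98.9% of all tested genes, which follows from the choice of CYR61 for this rise and is no separate result. As deposited, without the spike-ins, CYR61 was at 951 to 1467 FPKM with CYC065 in the MYCN lines and at 662 to 693 in SH-EP.

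CTGF had smaller differences. It was at 124, 131, and 182 scaled FPKM in WT in DMSO against 145, 165, and 199.999 with CYC065, at 121, 203, and 205 against 299, 312, and 314 in T58A, and at 82.7, 94.1, and 109 against 126, 148, and 157 in S62A. In T58A S62A it was at 247, 294, and 348 against 409, 551, and 586, and in SH-EP at 329, 341, and 370 against 265, 336, and 348. The treated libraries lay above the DMSO libraries in T58A, S62A, and T58A S62A, and the 2 treatments overlapped in WT and in SH-EP. The log2 differences were -0.14 in SH-EP, 0.23 in WT, 0.59 in S62A, 0.79 in T58A S62A, and 0.85 in T58A (SE 0.195 each), and as deposited the SH-EP value turned to 1.11. CTGF thus lay at 0.62 over the MYCN lines, 1.85 above the median of all genes, and 0.92 above that median in SH-EP. These positions describe a gene chosen for its rise with CYC065 and are no separate result. The ratio of CYR61 to CTGF, which needs no scaling, was 1.23 to 1.68 in the 15 DMSO libraries and 2.22 to 3.14 in the 15 libraries with CYC065.

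**Figure D3:**
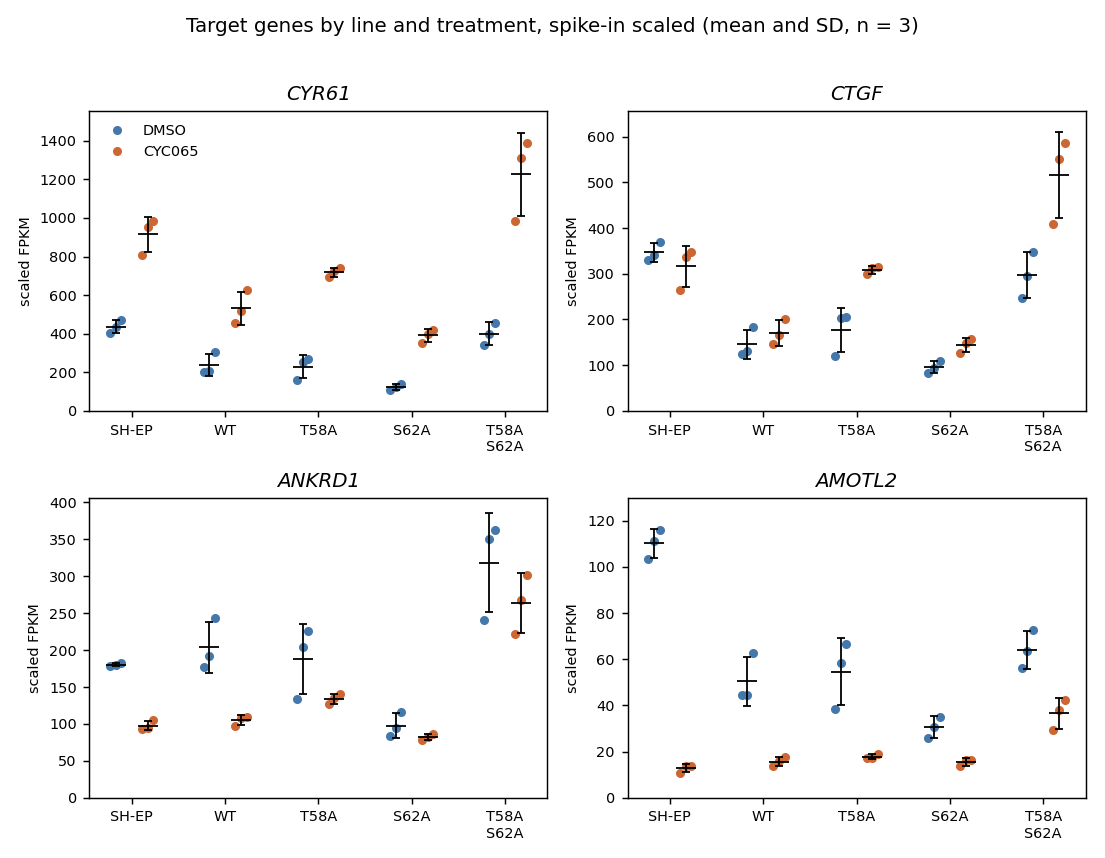
Spike-in scaled FPKM (vertical axes, starting at 0) of CYR61, CTGF, ANKRD1, and AMOTL2 by line (horizontal axis) and treatment. Points are libraries, and bars are the mean and SD of 3. CYR61 is higher with CYC065 in each line, at 352 to 1389 against 107 to 470 over all lines, and AMOTL2 in SH-EP lies at 104 to 116 in DMSO and at 10.7 to 13.9 with CYC065.

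The other 2 target genes were lower with CYC065 on the spike-in scale. ANKRD1 fell by less than most genes in the MYCN lines and lay 0.18 above the median of all genes in SH-EP. AMOTL2 fell by an amount that differed between lines. ANKRD1 was at 177, 192, and 243 scaled FPKM in WT in DMSO against 97.0, 109, and 109 with CYC065, at 134, 204, and 225 against 127, 135, and 140 in T58A, and at 83.3, 94.4, and 116 against 77.7, 82.1, and 86.2 in S62A. In T58A S62A it was at 241, 351, and 363 against 222, 268, and 302, and in SH-EP at 179, 180.0, and 182 against 93.6, 94.5, and 105. Only WT and SH-EP had no overlap between treatments. ANKRD1 fell in WT (-0.95), T58A (-0.45), and SH-EP (-0.89), with limma adjusted p values of 1.70e-05, 0.0204, and 6.54e-05, and the values in S62A (-0.24) and T58A S62A (-0.26) did not pass the threshold. The medians of all genes were -1.57, -1.08, -1.06, -1.35, and -0.97 in the same order. As deposited, all 5 values turned positive, at 0.36 in SH-EP and 0.89 over the MYCN lines.

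Of the 10 genes, AMOTL2 had the largest mean difference in response between the MYCN lines and SH-EP. In SH-EP it was at 104, 111, and 116 scaled FPKM in DMSO and at 10.7, 13.89, and 13.90 with CYC065, an 8.58-fold lower level (log2 change -3.10, SE 0.188, adjusted p = 8.51e-14). In WT it was at 44.4, 44.5, and 62.8 against 13.7, 15.8, and 17.5, and in T58A at 38.5, 58.6, and 66.7 against 17.1, 17.1, and 19.0. In S62A it was at 25.7, 30.7, and 35.1 against 13.6, 16.4, and 16.5, and in T58A S62A at 56.1, 63.4, and 72.6 against 29.3, 37.9, and 42.6. The treated libraries lay below the DMSO libraries in all 5 lines, and the share of all genes separated in this way is not given. AMOTL2 fell 1.76-fold in T58A S62A, 1.95-fold in S62A, 2.99-fold in T58A, and 3.19-fold in WT. As deposited, AMOTL2 went from 31.6, 34.5, and 38.1 FPKM to 9.18, 9.68, and 9.77 in SH-EP, and in the MYCN lines the log2 changes were -0.39 in T58A, 0.01 in WT, 0.26 in T58A S62A, and 0.53 in S62A.

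The interaction, which is the CYC065 change in a MYCN line minus that in SH-EP, tests this difference itself. For AMOTL2 it was 1.43 for WT, 1.52 for T58A, 2.14 for S62A, and 2.28 for T58A S62A (SE 0.266 each), with adjusted p values of 0.0036, 0.00147, 1.85e-05, and 4.45e-06. Over the 4 lines it was 1.84 (SE 0.210, adjusted p = 1.99e-06), and without spike-in scaling it was 1.95. Of the 8 tested genes, AMOTL2 was the 1 with a higher interaction and LATS2 the 1 with a lower interaction, where 4.17% of all tested genes were higher and 1.93% lower. Without spike-in scaling 4 were higher (AMOTL2, ANKRD1, LATS1, and TEAD1) and 3 lower (LATS2, YAP1, and WWTR1), beside 13.0% and 20.3% of all genes. By line on the spike-in scale, the shares of all genes with a higher and a lower interaction were 1.89% and 16.3% in WT, 2.28% and 0.311% in T58A, 3.08% and 1.87% in S62A, and 5.21% and 0.199% in T58A S62A. AMOTL2 was higher in each of the 4, as were 1.37% of all genes. The 4 interactions share the SH-EP libraries and are not independent. AMOTL2 kept its call in each of the 30 fits without 1 library, with interactions of 1.72 to 1.90. For CYR61 and CTGF the same quantity was 0.47 (SE 0.211) and 0.76 (SE 0.218) over the 4 lines and is given as a description.

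Among the TEAD factors and coactivators, TEAD4 had the largest decrease with CYC065. It was at 19.9, 22.4, and 30.5 scaled FPKM in WT in DMSO against 2.19, 2.28, and 3.34, at 25.4, 38.0, and 39.6 against 6.02, 6.53, and 7.35 in T58A, and at 13.3, 13.9, and 17.4 against 1.26, 1.49, and 1.86 in S62A. In T58A S62A it was at 34.0, 36.7, and 46.7 against 5.51, 7.87, and 9.81, and in SH-EP at 28.0, 29.1, and 34.2 against 3.77, 4.14, and 6.93. Each treated group lay wholly below its DMSO group, and the share of all genes separated in this way is not given. TEAD4 fell, with log2 changes of -2.76 over the MYCN lines (SE 0.118, adjusted p = 4.35e-18) and -2.64 in SH-EP (SE 0.237, adjusted p = 1.34e-10), or -1.53 and -1.58 relative to the median of all genes. As deposited the changes were -1.43 and -1.39. TEAD1 fell (-1.32 over the MYCN lines and -1.43 in SH-EP), as did YAP1 (-1.24 and -0.88) and WWTR1 (-1.499 and -1.13), each with an adjusted p of at most 0.00011, and all 3 lay within 0.37 of the median of all genes. As deposited, YAP1 (0.11) and TEAD1 (0.04) turned positive over the MYCN lines and WWTR1 (-0.14) did not.

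**Figure D4:**
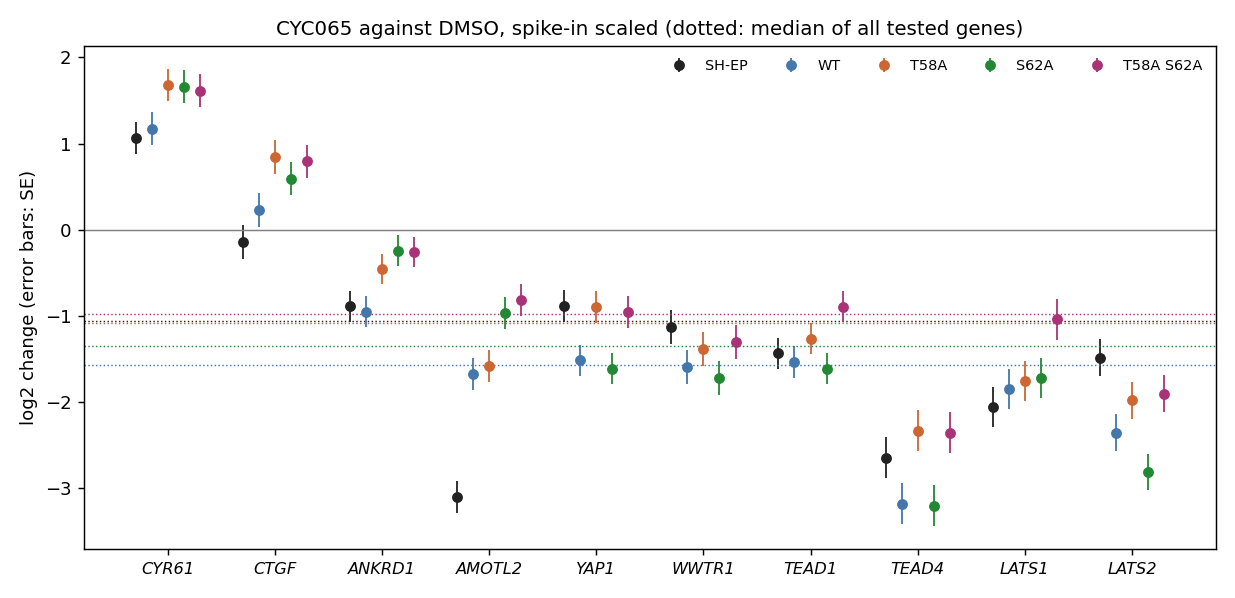
Log2 change in spike-in scaled FPKM from DMSO to CYC065 (vertical axis) for the 10 genes (horizontal axis) in each line. Points are fitted changes, bars are standard errors, and dotted lines are the median of all tested genes in each line. CYR61 lies at 1.06 to 1.68, AMOTL2 lies at -3.10 in SH-EP and at -1.67 to -0.82 in the MYCN lines, and TEAD4 lies below the medians of all genes in each line.

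The kinase genes LATS1 and LATS2 were both lower with CYC065 on the spike-in scale. LATS2 was at 17.3, 18.3, and 19.6 scaled FPKM in SH-EP in DMSO against 5.47, 6.71, and 7.49, at 6.37, 6.95, and 7.34 against 0.883, 1.49, and 1.53 in WT, and at 4.76, 4.80, and 5.24 against 0.523, 0.667, and 0.674 in S62A. In T58A it was at 5.58, 8.80, and 9.97 against 1.84, 1.96, and 1.99, and in T58A S62A at 6.92, 8.14, and 9.41 against 1.59, 2.30, and 2.52. The treatments did not overlap in any line. The share of all genes separated in this way is not given, and by the test 74.0% of all genes were lower in all 4 MYCN lines. LATS2 fell, with log2 changes of -2.26 over the MYCN lines (adjusted p = 2.73e-17) and -1.48 in SH-EP (adjusted p = 5.16e-07), and the interaction was -0.78 (SE 0.236, adjusted p = 0.0475, with 0.000121 to 0.268 over the alternatives). By line the interaction passed in WT (-0.87, adjusted p = 0.0459) and S62A (-1.33, adjusted p = 0.00777) and did not in T58A (-0.50, adjusted p = 0.585) and T58A S62A (-0.42, adjusted p = 0.646). The median interactions of all genes were -0.52, -0.29, -0.01, and 0.08 in the same order, and in WT 16.3% of all genes passed as lower. The call over the 4 lines passed in 8 of 30 fits without 1 library. As deposited the SH-EP change of LATS2 was -0.24 and did not pass (adjusted p = 0.0584, with 2.73e-08 to 0.409 over the alternatives). LATS1 fell, with changes of -1.59 over the MYCN lines and -2.06 in SH-EP (adjusted p = 4.83e-13 and 1.00e-08), and its interaction of 0.47 did not pass (adjusted p = 0.298). As deposited, the LATS1 interaction was 0.56 and passed (adjusted p = 0.00385). The ratio of LATS2 to LATS1 within a library was 0.630 to 0.838 in SH-EP in DMSO and 0.960 to 1.21 with CYC065, whereas in each MYCN line it was lower with CYC065, at 0.277 to 0.542 over the 4 lines against 0.484 to 0.765 in DMSO.

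**Figure D5:**
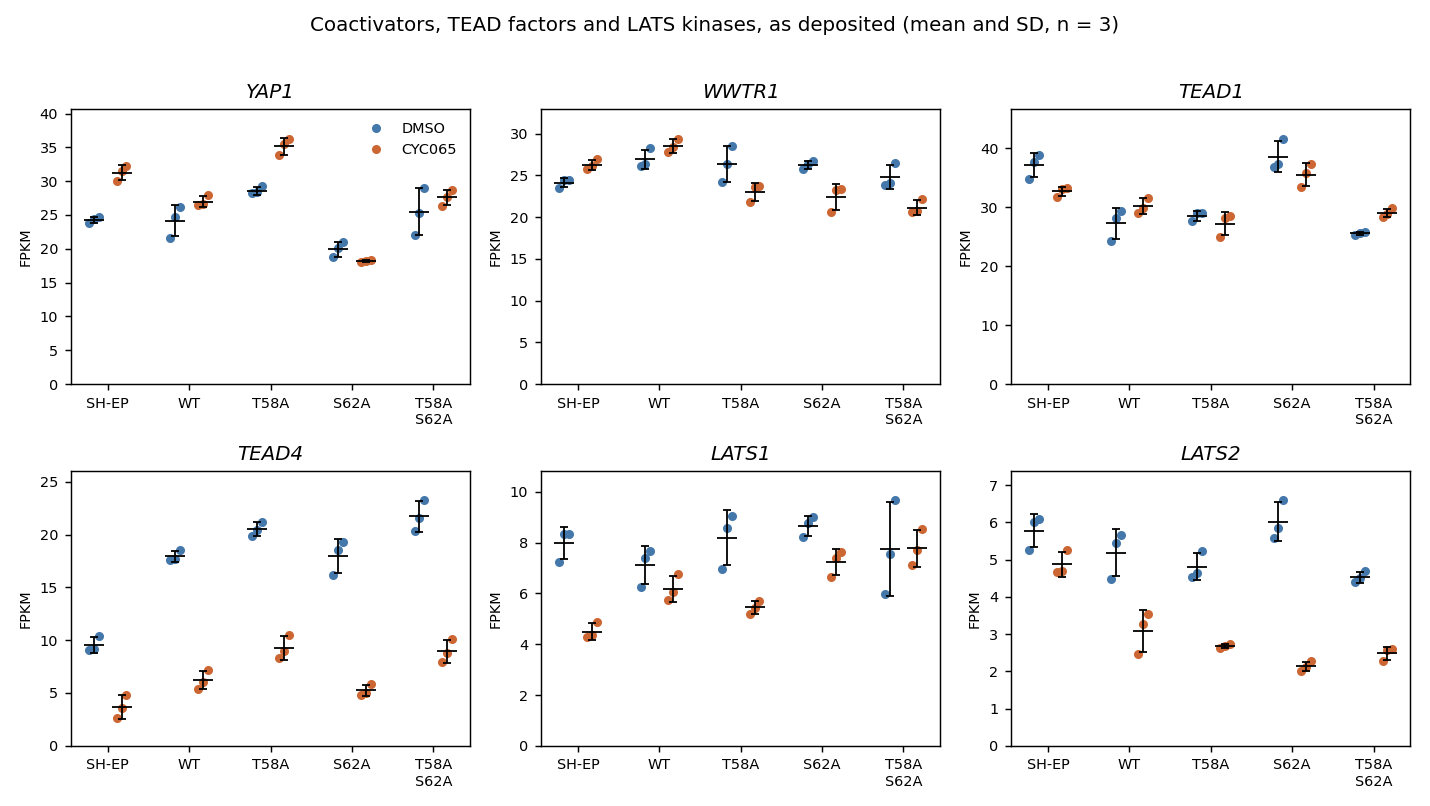
FPKM as deposited (vertical axes, starting at 0) of YAP1, WWTR1, TEAD1, TEAD4, LATS1, and LATS2 by line (horizontal axis) and treatment. Points are libraries, and bars are the mean and SD of 3. TEAD4 lies at 9.03 to 10.4 in SH-EP in DMSO and at 16.2 to 23.2 in the MYCN lines, and LATS2 with CYC065 lies at 4.67 to 5.26 in SH-EP and at 2.01 to 3.54 in the MYCN lines.

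Over the 4 MYCN lines, 8 of the 8 tested genes were lower with CYC065 and 0 were higher, where 94.1% of all tested genes were lower and 1.73% higher. In SH-EP 8 of 8 were lower too, beside 75.7% lower and 0.907% higher among all genes, so these counts are near the background. By line, 8 of 8 were lower in WT and T58A and 7 of 8, without ANKRD1, in S62A and T58A S62A. The shares of all genes that were lower and higher were 93.7% and 0.769% in WT, 84.2% and 1.25% in T58A, 90.2% and 0.968% in S62A, and 76.3% and 1.85% in T58A S62A, and 74.0% were lower in all 4. As deposited, 3 were higher (ANKRD1, AMOTL2, and YAP1) and 4 lower in the MYCN lines, where 45.4% of all genes were higher and 39.6% lower, and in SH-EP 2 were higher and 4 lower, beside 42.7% and 33.5%.

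The wider pathway was read from 4 lists. Of 17 genes for Hippo kinases and scaffolds, 8 were higher and 7 lower over the MYCN lines in DMSO, with a median of 0.06, as for all genes, of which 34.6% were higher and 26.3% lower. With spike-in scaling 1 was higher and 14 were lower. WWC1 (2.07), which encodes the scaffold KIBRA, and AJUBA (1.04), a LIM protein that inhibits LATS, were highest, and FRMD6 (-1.35) and MOB1B (-0.39), a LATS coactivator, were lowest, with AJUBA turning to -0.21 with spike-in scaling. Of 4 tested TEAD factors and cofactors, TEAD3 (1.68), TEAD2 (0.30), and VGLL4 (0.14, adjusted p = 0.0487, with 7.83e-08 to 0.303 over the alternatives), a TEAD corepressor, were higher and VGLL3 (-0.88) was lower. TEAD2 and VGLL4 turned to -0.94 and -1.11 with spike-in scaling, with 1 of the 4 higher and 3 lower, and VGLL1 and VGLL2 were listed at 0 in all libraries.

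Of 16 tested YAP and TAZ target genes outside the 10, 4 were higher and 11 lower in the MYCN lines, beside the same 34.6% and 26.3% of all genes, with a median of -0.33 against 0.06 for all genes. With spike-in scaling 0 were higher and 15 lower. FJX1 (1.04) and TGFB2 (0.48), a TGF-β ligand, were highest, and NT5E (-0.78), the ecto-5′-nucleotidase CD73, and CRIM1 (-0.77) were lowest, with FJX1 and TGFB2 turning to -0.20 and -0.74 with spike-in scaling. In DMSO only T58A S62A stood apart for TGFB2, at 11.4 to 12.8 FPKM. The libraries of WT, T58A, and S62A (2.52 to 3.73) overlapped with SH-EP (2.88 to 3.24). Of the other CCN family genes, WISP1, a secreted relative of CYR61 and CTGF, was lower in the MYCN lines (-4.44, SE 0.346, adjusted p = 7.48e-11), at 5.16 to 5.43 FPKM in SH-EP and 0.0252 to 0.321 in the MYCN lines. The size rested on the pseudocount, with -2.43 for 1 and -5.20 for 0.01. NOV, WISP2, and WISP3 were under the filter.

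With CYC065, 17 of 17 Hippo genes and 4 of 4 TEAD factors and cofactors were lower over the MYCN lines on the spike-in scale, with medians of -1.59 for both lists, where 94.1% of all genes were lower, so these counts are near the background. As deposited, 5 Hippo genes were higher and 9 lower, and 1 of the TEAD list was higher and 3 lower. TAOK1 (-3.05), a kinase that activates MST, and SAV1 (-2.66), the MST scaffold, were lowest of the Hippo genes, and MOB1A (-0.87) and AMOT (-0.89) fell least. The changes were -2.27 for TEAD3, -1.73 for VGLL4, -1.46 for VGLL3, and -1.05 for TEAD2. Without the spike-ins 7 Hippo genes and 1 of the TEAD list turned positive, among them MOB1A (0.49), AMOT (0.41), and TEAD2 (0.30). Of the 16 target genes 14 were lower and 2 higher, beside 94.1% and 1.73% of all genes, and as deposited 2 were lower and 10 higher. The 2 higher on the spike-in scale were NUAK2 (2.54, SE 0.0935, adjusted p = 1.99e-19), an AMPK-related kinase, and GADD45A (1.88, SE 0.0996, adjusted p = 4.13e-16), a stress-induced growth arrest gene. The list's median was -0.84 against -1.23 for all genes, and 10 of the 16 lay above that median. ARHGEF17 (-2.32) and ASAP1 (-1.66) were lowest, and WISP1 was at -0.93 (adjusted p = 0.00111, with 6.90e-05 to 0.564 over the alternatives), a call that was lost as deposited (-0.31) for a gene at 0 to 0.216 FPKM with CYC065 in these lines. Its value was -0.19 with a pseudocount of 1 and -1.80 with 0.01. In SH-EP the 2 higher target genes were also NUAK2 (2.70) and GADD45A (1.79), with 10 lower and 4 not past the threshold.

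Over the means of the 10 groups on the log2 spike-in scale, the 5 genes most like CYR61 by Pearson's r were ACTG1P20 (0.989), IER2 (0.962), GADD45A (0.962), NUAK2 (0.961), and SNORA48 (0.956). IER2 is an immediate early gene, ACTG1P20 is an actin pseudogene whose reads may belong to a near-identical actin gene, and SNORA48 is a small nucleolar RNA inside a host gene, so the values of these last 2 are uncertain. Most like CTGF were TSC22D2 (0.962), RBM15 (0.951), FBXW7 (0.944), PMAIP1 (0.943), and SESN1 (0.942), of which FBXW7 is a ubiquitin ligase subunit and PMAIP1 a proapoptotic BCL2 family gene. CYR61 and CTGF had an r of 0.849 with each other, which placed CTGF 43rd among the genes most like CYR61. The 10 groups share lines, treatments, and spike-in factors, so these values carry no p.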

How the data were processed

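Per the study's methods, the authors added ERCC spike-ins to the extracted RNA in proportion to cell number, selected poly(A) RNA for stranded libraries, aligned with HISAT2 to hg19, and deposited FPKM from Cufflinks. These FPKM values were not scaled to the spike-ins. The annotation was not given in the sources used here. FPKM carry no read counts, so no interval for counting error is given. Column names gave the line and treatment, with no replicate number matching the labels.

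The line comparison used the deposited FPKM. CYC065 changes and interactions used FPKM multiplied by a factor per library that brought the median log2 level of 55 spike-ins (mean of 1 FPKM or more) to the same value. limma 3.58.1 (R 4.3.3) was run on log2(FPKM + 0.1) in 1 fit of the 10 groups for the 11575 genes whose mean reached 1 FPKM, with Benjamini-Hochberg adjustment over all of them and a threshold of 0.05. On this log scale the changes of low genes are understated. Comparisons with SH-EP share its libraries.

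The 10 genes and the lists were chosen with earlier results of these data known. Named are the 10 genes, the 2 highest and 2 lowest genes of each list by mean change over the MYCN lines, and the 5 genes most like CYR61 and CTGF. Positions are from GENCODE lifted to GRCh37, and symbols were matched through RefSeq synonyms. The settings varied were the pseudocount (1 or 0.01), the filter (none or 5 FPKM), the scaling, centring on the median, spike-ins of at least 50 FPKM, a fit of only the groups compared, and leaving out each library. Scripts were tested on simulated data. Figures were drawn with matplotlib 3.10.9 (Python 3.11.15).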

Additional observations from a re-analysis of the deposited data

Results flagged for a closer look

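By the interaction test, the CYC065 response of AMOTL2 in the MYCN lines differed from that in SH-EP by 1.43 (WT), 1.52 (T58A), 2.14 (S62A), and 2.28 (T58A S62A) on the log2 scale, and by 1.84 over the 4 lines. That of LATS2 differed by -0.87 in WT (limma adjusted p = 0.0459), by -1.33 in S62A (adjusted p = 0.00777), and by -0.78 over the 4 lines, a call that passed in 8 of 30 fits without 1 library. The medians of all genes were -0.52 in WT, where 16.3% of all genes passed as lower, -0.29 in S62A, and -0.20 over the 4 lines. In T58A (-0.50, adjusted p = 0.585) and T58A S62A (-0.42, adjusted p = 0.646) the difference for LATS2 did not pass.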

How the results depend on the processing

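AMOTL2 kept its higher interaction, and TEAD4 and LATS2 their decrease with CYC065 over the MYCN lines, under all alternatives that gave a value. The lower interaction of LATS2 was lost (0 genes lower) with a pseudocount of 1, no filter, a filter at 5 FPKM, which left LATS2 untested, and spike-ins of at least 50 FPKM, and the lower count ranged from 0 to 1 without 1 library. Without spike-in scaling, the CYC065 counts became 3 higher and 4 lower of the 8 genes over the MYCN lines, 2 and 4 for SH-EP, and 16 and 14 of the list genes, with 4 and 3 for the interaction. Of the 38 list genes 16 turned positive. Values that turned, for the 10 genes and the named list genes, were ANKRD1 (0.89), AMOTL2 (0.10), YAP1 (0.11), TEAD1 (0.035), MOB1A (0.49), AMOT (0.41), and TEAD2 (0.30) in the MYCN lines and, for SH-EP, CTGF (1.11), ANKRD1 (0.36), YAP1 (0.36), and WWTR1 (0.12) in SH-EP. With libraries centred on their median, the counts were 4 and 2, 3 and 3, 20 and 12, and 4 and 3, and the values ANKRD1 1.06, AMOTL2 0.27, YAP1 0.29, WWTR1 0.030, TEAD1 0.21, MOB1A 0.66, AMOT 0.58, and TEAD2 0.47 and, in SH-EP, CTGF 1.25, ANKRD1 0.50, YAP1 0.50, and WWTR1 0.26. With spike-in scaling of the line comparison, 0 genes were higher and 6 lower, with 2 and 33 in the lists, and CYR61 (-0.95), CTGF (-1.10), AMOTL2 (-1.21), WWTR1 (-1.14), TEAD4 (-0.22), AJUBA (-0.21), TEAD2 (-0.94), VGLL4 (-1.11), FJX1 (-0.20), and TGFB2 (-0.74) turned, with 15 of the 38 list genes in all. A scaling applies 1 factor per library and so moves all its genes together, and what set these factors was not tested. Near 0, YAP1 in the line comparison turned to 0.000319 with a pseudocount of 1 and the TEAD1 interaction to -0.034 with spike-ins of at least 50 FPKM. Without 1 library, line differences ranged from -0.030 to 0.11 for AMOTL2, -0.086 to 0.022 for LATS1, and -0.025 to 0.024 for YAP1, interactions from -0.0083 to 0.17 for TEAD1 and -0.29 to 0.14 for TEAD4, and the counts in the MYCN lines against SH-EP from 2 to 3 higher and 1 to 2 lower, or 12 to 15 and 17 to 20 of the list genes. No paired analysis was possible because the columns carry no replicate numbers of the labels. The depth is unknown in reads, and read counts behind LATS1 and LATS2, the lowest of the 10 genes, cannot be given.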

Other observations

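Of the 38 list genes tested, 3 (7.89%) passed the interaction test over the 4 MYCN lines, 2 higher and 1 lower, beside 4.17% and 1.93% of all genes, and without spike-in scaling 3 were higher and 7 lower. AJUBA (1.36, SE 0.213, limma adjusted p = 0.000129) and FJX1 (1.22, SE 0.219, adjusted p = 0.000582) were higher, and VGLL4 (-0.79, SE 0.202, adjusted p = 0.0152) was lower. The CYC065 changes in SH-EP and over the MYCN lines were -3.32 and -1.96 for AJUBA, -2.59 and -1.37 for FJX1, and -0.94 and -1.73 for VGLL4. Without spike-in scaling the interactions were 1.46, 1.32, and -0.69. These 3 were named after their values were seen.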
